A study of Mus musculus with 2 samples.

Results

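The SR and hnRNP splicing factors were followed in MS1, an immortalised line of endothelial cells grown from mouse pancreatic islets, with and without knockdown of Pspc1. The set was defined by name: genes of the SR proteins, the Tra2 and Srrm proteins, the hnRNPs, Ptbp1 and the Pcbp proteins. All 37 were found among the 11405 genes of the files by Ensembl identifier. The study held 2 libraries of poly-A RNA. The Pspc1 shRNA library came from MS1 cells given a lentivirus with a short hairpin RNA against Pspc1, labelled as a Pspc1 knockdown. The LacZ shRNA library came from MS1 cells, labelled wild type, given a lentivirus with a hairpin against LacZ, a bacterial gene that mouse cells lack. Both groups were of the same line and both carried lentivirus. Each group held 1 library, so there was no replicate error, no test and no p-value. An effect of the hairpin and a difference between 2 cultures cannot be told apart.

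SR proteins carry an RNA-binding domain and a tail rich in serine and arginine, and they mark exons for the spliceosome. The hnRNPs coat nascent transcripts, and many of them silence the exons they bind, so the balance of both families helps to set which exons are kept. Many of these genes control their own level by splicing in a so-called poison exon, which sends the transcript to nonsense-mediated decay. PSPC1 is an RNA-binding protein of paraspeckles, which are nuclear bodies with the long noncoding RNA Neat1 as their scaffold. In human cells, HNRNPK and HNRNPH3 are among the hnRNPs found in those bodies.

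The deposited value of a gene is its read count after scaling by the authors. Behind the values stood 53518762 reads on listed genes in the Pspc1 shRNA library and 64009912 in the LacZ shRNA library. Pspc1 itself had a value of 3.78 in the Pspc1 shRNA library and 28.8 in the LacZ shRNA library, which is 192 reads in the Pspc1 shRNA library and 1880 in the LacZ shRNA library, so the targeted gene was 7.62-fold lower where the label says so. All 8 endothelial markers looked for were present, with summed values of 6288 in the Pspc1 shRNA library and 6003 in the LacZ shRNA library. Of 4 markers each, 0 were found for beta cells (Ins1, Ins2, Iapp, Pdx1) and 0 for acinar cells. Fibroblasts, pericytes, leukocytes and epithelium had 1 of 4 each. Among these, Cd68 was highest with 123.7 in the Pspc1 shRNA library and 102.7 in the LacZ shRNA library. In bulk RNA, fewer cells that express a gene and less RNA per cell cannot be told apart.

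SR and hnRNP genes were lower in the Pspc1 shRNA library as a set, mostly by small amounts. The log2 ratio of each gene was taken as Pspc1 shRNA over LacZ shRNA with a pseudocount of 0.5 on both values, which shrinks the ratio where values are low. Of the 37 genes, 33 reached a minimum of 20 for the mean of both libraries, and Srsf4, Hnrnph2, Hnrnph3 and Hnrnpr did not. Among these 33, 31 (93.9%) had a log2 ratio below 0, against 45% of the 5892 genes in the files with that mean. Their median was -0.30, against 0.04 for all 5892. At least 1.5-fold lower were 7 of the 33 (21.2%), against 5.52% of all. These 7 include Srrm2, which passed the minimum only through its LacZ shRNA value. At a minimum mean of 50, which Srrm2 does not reach, 5 of 27 members were, against 3.89% of 3629 genes. Only 1 of the 33, Hnrnpa2b1, was at least 2-fold lower, against 1.21% of all, and not under every scaling tried. None was at least 1.5-fold higher, against 3.82% of all, and hence none 2-fold higher, against 0.849%.

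**Figure D1:**
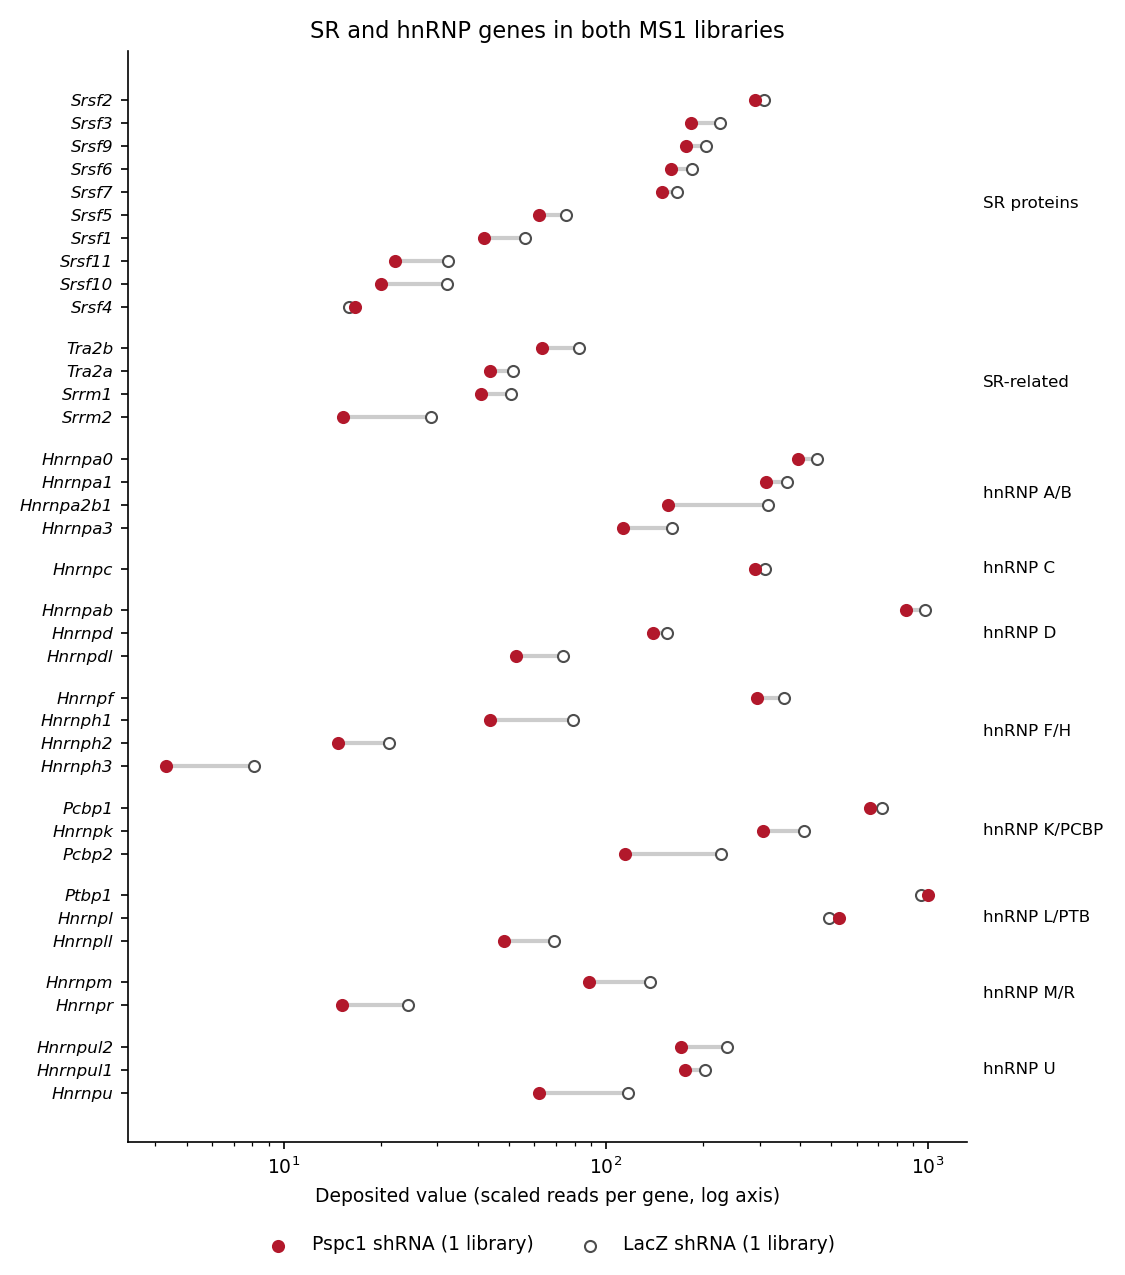
Deposited values (scaled reads per gene, log axis) of the 37 SR and hnRNP genes by family, with the Pspc1 shRNA library as filled and the LacZ shRNA library as open circles, 1 library each. The filled circle lies left of the open one in 34 of 37 genes, while 54.8% of all 11405 genes had a log2 ratio below 0. The exceptions are Hnrnpl, Ptbp1 and Srsf4, which were also below 0 when libraries were scaled by total reads.

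Counting error was small beside most of these differences. The 95% counting interval of the ratio, which has no pseudocount and covers counting error only, lay below 0 in 34 of the 37 genes, above 0 in 2 and across 0 in 1. The share of all genes with an interval below 0 is not given here. By the ratio alone, with no minimum, 34 of the 37 were below 0, against 54.8% of all 11405 genes. Its width had a median of 0.09 log2 and ran from 0.03 to 0.46. Reads per gene and library ran from 219 to 64079. Together the 37 genes held 0.677% of the reads in the Pspc1 shRNA library (exact binomial interval 0.674 to 0.679) and 0.856% in the LacZ shRNA library (0.853 to 0.858). Their summed deposited values were 7134 in the Pspc1 shRNA library and 8393 in the LacZ shRNA library, a ratio of 0.850. Such sums are led by the members with the highest values.

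The log2 ratio moved with merged exonic length and base composition, and SR and hnRNP genes have long merged exons and are rich in A and T. Across all 5892 genes the log2 ratio had a Spearman rho of -0.32 with merged exonic length, and of 0.31 with GC content over the 5889 genes with a value. Across the 33 SR and hnRNP genes it was -0.56 with length and 0.45 with GC. These correlations run across genes of the same 2 libraries and describe them only. Median exonic length was 5842 bases for the 33 and 4171 for all genes, and median GC content 45.7% and 52.3%. Longer genes had the lower medians in both sets. The 24 members longer than the median gene had a median log2 ratio of -0.45 and held all 7 that were at least 1.5-fold lower, while the 9 shorter ones had a median of -0.20. All genes showed medians of -0.05 in the longer part and 0.11 in the shorter part. With the part that follows length and GC across genes removed, 25 of the 33 still had a log2 ratio below 0, against 43.8% of all genes, with medians of -0.17 and 0.04. By that measure 3 of the 33 were at least 1.5-fold lower: Pcbp2 (-0.93), Hnrnpa2b1 (-0.70) and Srrm2 (-0.66). Of these, Srrm2 passed the minimum only through its LacZ shRNA value. The share of all genes was then 3.53%.

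**Figure D2:**
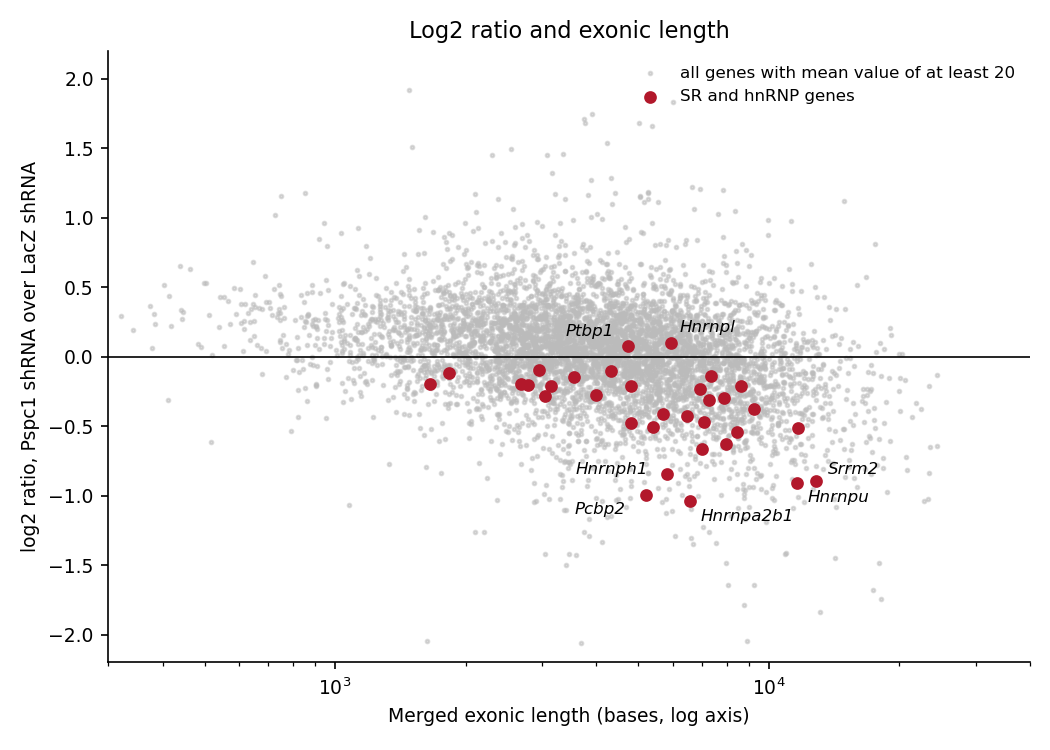
Log2 ratio (Pspc1 shRNA over LacZ shRNA) against merged exonic length in bases (log axis) for all 5892 genes in grey and the 33 SR and hnRNP genes in red; 6 genes lie outside the ratio axis and 7 outside the length axis. Both clouds slope down to the right, and most red points lie in the lower part of the grey cloud at their length.

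Among the 10 SR proteins, 9 had a mean of at least 20, and all 9 were below 0, against 45% of all genes with that mean. The 9 had a median log2 ratio of -0.28 (-0.15 after correction for length and GC). Srsf2 and Srsf7 differed least. Srsf2, whose protein is found in nuclear speckles, had 289.8 in the Pspc1 shRNA library and 310.5 in the LacZ shRNA library. Srsf7, which also serves mRNA export, had 149.6 in the Pspc1 shRNA library and 165.8 in the LacZ shRNA library. Srsf3, a small SR protein that links splicing to export, had 183.4 in the Pspc1 shRNA library against 226.2 in the LacZ shRNA library. Srsf6 and Srsf9 lay between them, with log2 ratios of -0.21 and -0.20. Values of Srsf9 were 177.9 in the Pspc1 shRNA library and 204.5 in the LacZ shRNA library, and those of Srsf6 were 159.6 in the Pspc1 shRNA library and 184.6 in the LacZ shRNA library. After the correction Srsf3 and Srsf7 moved to just above 0 (both 0.07).

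Srsf1, the founding member of the family and an activator of splice site choice, had 42.0 in the Pspc1 shRNA library and 56.2 in the LacZ shRNA library, a log2 ratio of -0.42. Srsf5 had 62.1 in the Pspc1 shRNA library and 75.2 in the LacZ shRNA library. The lowest ratios belonged to the scarcer members. Srsf10, which represses splicing when dephosphorylated, had 20.1 in the Pspc1 shRNA library and 32.1 in the LacZ shRNA library, 1.60-fold lower. Srsf11 had 22.1 in the Pspc1 shRNA library and 32.4 in the LacZ shRNA library, a log2 ratio of -0.54. Srsf4 was the exception and lay under the minimum, with 16.7 in the Pspc1 shRNA library and 15.9 in the LacZ shRNA library. Its counting interval, -0.07 to 0.20, spans 0, and 43.0% of its exonic bases overlap a gene on the opposite strand.

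The 4 SR-related genes were all lower, where 45% of all genes were, with a median log2 ratio of -0.34. Srrm2, a large scaffold protein of nuclear speckles, had 15.2 in the Pspc1 shRNA library and 28.7 in the LacZ shRNA library, 1.88-fold lower. It had the longest exons of the 33 (12842 bases), passed the minimum through its LacZ shRNA value, and stood at -0.66 once corrected. Srrm1, a splicing coactivator, had 40.9 in the Pspc1 shRNA library and 50.7 in the LacZ shRNA library. Tra2a and Tra2b are named after a fruit fly splicing activator that acts in sex determination. Tra2b had 63.5 in the Pspc1 shRNA library and 82.4 in the LacZ shRNA library, and Tra2a had 43.6 in the Pspc1 shRNA library and 51.3 in the LacZ shRNA library. Both turned to just above 0 after the correction (0.09 and 0.06), and the median of the 4 genes then was -0.05.

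The 23 hnRNP, PTB and PCBP genes spread more widely, from a log2 ratio of -1.04 to 0.10 among the 20 with a mean of at least 20. Their median was -0.35 (-0.28 after the correction), 18 of the 20 were below 0, and 5 were at least 1.5-fold lower. Of all genes with that mean, 45% were below 0 and 5.52% at least 1.5-fold lower. The plot of log2 ratios by family shows close relatives on different levels.

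**Figure D3:**
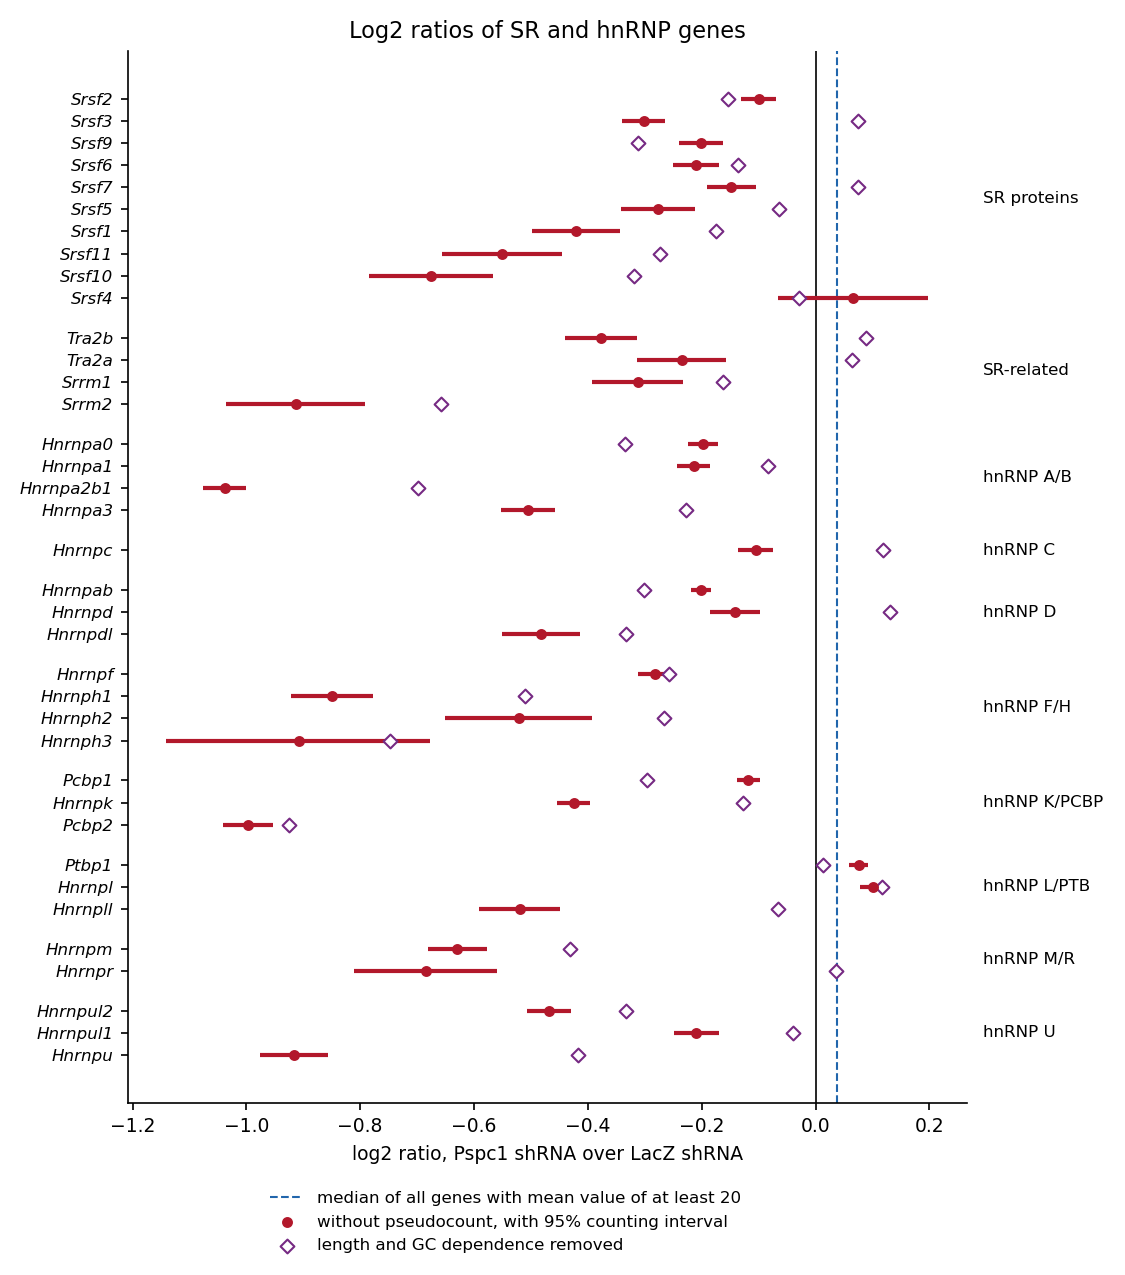
Log2 ratio (Pspc1 shRNA over LacZ shRNA, no pseudocount) of each SR and hnRNP gene by family, as filled circles with the 95% counting interval as a bar; open diamonds give the ratio after removal of the length and GC dependence, and the dashed line is the median of all genes (0.04). Hnrnpa2b1, Pcbp2, Hnrnpu and Srrm2 lie farthest left among the 33, and Hnrnpl and Ptbp1 are the members of these 33 to the right of 0, though not when scaled by total reads.

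In the hnRNP A/B family, proteins that silence exons and carry transcripts to the cytoplasm, 1 member stood apart from the others. Hnrnpa2b1 (ENSMUSG00000004980, mm10 chromosome 6, 51460932 to 51469894, minus strand) had 155.5 (7893 reads) in the Pspc1 shRNA library and 319.3 (20834 reads) in the LacZ shRNA library. That is 2.05-fold lower, the counting interval on the log2 scale being -1.08 to -1.001, and 0.933% of all 5892 genes had a lower ratio. The log2 ratio was -0.99, under 2-fold, both with median-of-ratios scaling and with a trimmed mean of M values, and -1.14 scaled by total reads. Hnrnpa1, its close relative and the classical antagonist of Srsf1, had 313.6 in the Pspc1 shRNA library and 363.7 in the LacZ shRNA library. Hnrnpa3 had 113.1 in the Pspc1 shRNA library and 160.5 in the LacZ shRNA library. The intronless Hnrnpa0, which binds AU-rich elements, had 394.0 in the Pspc1 shRNA library and 451.8 in the LacZ shRNA library. Hnrnpa2b1 was thus lower than Hnrnpa1 by a difference of -0.82 in log2 ratio (counting interval -0.87 to -0.78), and by -0.61 after the length and GC correction. The deposited value of Hnrnpa2b1 over that of Hnrnpa1, not per length, was 0.496 in the Pspc1 shRNA library and 0.878 in the LacZ shRNA library. Reads of Hnrnpa1 and Hnrnpa3 can be shared with copies: 28.2% and 27.1% of their 50-base transcript windows also occur in transcripts of other genes, against 0.591% for Hnrnpa2b1.

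The poly-C-binding proteins, which bind C-rich RNA and also carry iron, differed in the same way. Pcbp2 (ENSMUSG00000056851, mm10 chromosome 15, 102470539 to 102500061, plus strand) had 114.4 (5809 reads) in the Pspc1 shRNA library and 228.5 (14910 reads) in the LacZ shRNA library. The ratio was 1.997-fold lower, just short of 2-fold (counting interval -1.04 to -0.95 on the log2 scale). Pcbp1, its intronless relative, had 661.7 in the Pspc1 shRNA library and 718.1 in the LacZ shRNA library. The difference in log2 ratio, Pcbp2 minus Pcbp1, was -0.88 (counting interval -0.93 to -0.83), and -0.63 after the correction. Exons of Map3k12 on the opposite strand cover 30.2% of the exonic bases of Pcbp2. Since no strand-marking kit is named, reads there cannot be assigned. Map3k12 had 51.9 in the Pspc1 shRNA library and 47.1 in the LacZ shRNA library. Hnrnpk, a further member of that protein class and a paraspeckle protein in human cells, had 307.8 in the Pspc1 shRNA library and 413.3 in the LacZ shRNA library.

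The hnRNP U proteins bind RNA and chromatin. Hnrnpu (ENSMUSG00000039630, mm10 chromosome 1, 178321108 to 178337797, minus strand), the scaffold attachment factor, had 61.9 in the Pspc1 shRNA library and 116.8 in the LacZ shRNA library, 1.89-fold lower (counting interval -0.98 to -0.86 log2). Its exons are long, 11599 bases in all, and the corrected log2 ratio was -0.42. Hnrnpul1 had 176.2 in the Pspc1 shRNA library and 203.7 in the LacZ shRNA library. Hnrnpul2 had 171.7 in the Pspc1 shRNA library and 237.5 in the LacZ shRNA library, a log2 ratio of -0.47. All 3 were lower, with Hnrnpu below Hnrnpul1 by a difference of -0.71 (counting interval -0.78 to -0.64), which was -0.38 after the correction.

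The hnRNP F and H proteins bind runs of G, and their genes went the same way by unequal amounts. Hnrnph1 had 43.7 in the Pspc1 shRNA library and 78.9 in the LacZ shRNA library, 1.80-fold lower. Hnrnpf had 294.4 in the Pspc1 shRNA library and 357.9 in the LacZ shRNA library, but 61.9% of its 50-base windows also occur in other genes. The scarce members were lower as well: Hnrnph2 had 14.8 in the Pspc1 shRNA library and 21.2 in the LacZ shRNA library. Hnrnph3, the member with the fewest reads, had 4.31 in the Pspc1 shRNA library and 8.09 in the LacZ shRNA library. Both lie under the minimum, and the counting interval of Hnrnph3 is wide (-1.14 to -0.68). Under that minimum lower values were common, since 65.3% of the 5513 genes there had a log2 ratio below 0.

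Splicing factors that bind pyrimidine or CA tracts held the only members of the 33 above 0. Ptbp1 (ENSMUSG00000006498, mm10 chromosome 10, 79854427 to 79864771, plus strand), the polypyrimidine tract repressor and the member with the highest deposited value (not per length) in the Pspc1 shRNA library, had 1003 in the Pspc1 shRNA library and 951.4 in the LacZ shRNA library. Hnrnpl (ENSMUSG00000015165, mm10 chromosome 7, 28808541 to 28822266, plus strand), which binds CA repeats, had 527.7 in the Pspc1 shRNA library and 492.1 in the LacZ shRNA library. Their log2 ratios of 0.08 and 0.10 became -0.03 and -0.003 when scaled by total reads, so their direction depends on the scaling. Hnrnpll, known for its part in Ptprc splicing in lymphocytes, had 48.3 in the Pspc1 shRNA library and 69.3 in the LacZ shRNA library. The difference in log2 ratio between Hnrnpl and Hnrnpll was 0.62 (counting interval 0.55 to 0.69), but 0.18 after the correction. The exons of Hnrnpll measure 11677 bases.

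The remaining hnRNP genes were lower to varied degrees. Hnrnpm had 88.7 in the Pspc1 shRNA library and 137.2 in the LacZ shRNA library, 1.55-fold lower. Of its exonic bases 14.7% overlap March2 on the same strand, which had 98.8 in the Pspc1 shRNA library and 78.6 in the LacZ shRNA library. Hnrnpr, just under the minimum with a mean of 19.8, had 15.2 in the Pspc1 shRNA library and 24.4 in the LacZ shRNA library. Its exons are the longest of the 37 (22199 bases), and its log2 ratio of -0.67 turned to 0.04 after the correction. Hnrnpc, which binds runs of U, had 291.0 in the Pspc1 shRNA library and 312.9 in the LacZ shRNA library.

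The hnRNP D group binds AU-rich elements and acts in mRNA decay. Hnrnpab, the highest of the group also per length, had 853.7 in the Pspc1 shRNA library and 981.9 in the LacZ shRNA library. Hnrnpd, also called AUF1, had 140.0 in the Pspc1 shRNA library and 154.4 in the LacZ shRNA library. Hnrnpdl had 52.5 in the Pspc1 shRNA library and 73.4 in the LacZ shRNA library, a log2 ratio of -0.48. All 3 were lower, though Hnrnpd turned to 0.13 after the correction, and Hnrnpc to 0.12. Exons of Phykpl on the opposite strand cover 29.1% of the exonic bases of Hnrnpab, and Phykpl had 15.5 in the Pspc1 shRNA library and 19.0 in the LacZ shRNA library.

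Members were compared in 19 pairs, all of them relatives except Srsf1 with Hnrnpa1, which were paired as antagonists. In 16 the counting interval of the difference between their log2 ratios excluded 0. In 13 of these the difference kept its sign after the correction, the others being Tra2a with Tra2b, Srsf3 with Srsf7 and Srsf1 with Srsf9. The share among other pairs of genes was not computed. With many reads the interval excludes 0 at small differences too, as for Hnrnpd minus Hnrnpab (0.06, 0.01 to 0.11). The pairs whose interval spans 0 were Hnrnph1 with Hnrnph3 (0.06, -0.18 to 0.30), Srsf5 with Srsf6 (-0.07, -0.14 to 0.01) and Srsf10 with Srsf11 (-0.13, -0.28 to 0.03). After the differences given above, the next largest were those of Srrm1 over Srrm2 (0.60, or 0.50 once corrected) and Hnrnph1 below Hnrnpf (-0.57, or -0.25 once corrected). As antagonists in splice site choice, Srsf1 and Hnrnpa1 had a level ratio of 0.134 in the Pspc1 shRNA library and 0.155 in the LacZ shRNA library. That ratio is not per length. These intervals compare 2 libraries and hold no spread between cultures.

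Levels per kilobase of merged exon ran from 0.683 for Hnrnpr to 361.6 for Pcbp1 in the Pspc1 shRNA library. Merged exons pool all annotated transcripts of a gene (median 9 in the set, 5 in all genes). They can thus exceed the length of the transcripts present, and the order of genes depends on the annotation. In the LacZ shRNA library they ran from 1.10 to 392.4 with the same genes at the ends. The order of the top 5 was the same in both: Pcbp1, Hnrnpab, Ptbp1, Hnrnpa0 and Srsf9. Hnrnpa2b1 ranked 15 in the Pspc1 shRNA library and 12 in the LacZ shRNA library, and Pcbp2 ranked 17 in the Pspc1 shRNA library and 14 in the LacZ shRNA library. Members with higher values were lower by less: across the 33, the log2 ratio and the mean value had a Spearman rho of 0.60, against 0.20 across all 5892 genes. Mean value and ratio come from the same libraries.

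Annotated decay transcripts were more frequent among these genes than among all genes. In GENCODE M21, 24 of the 37 genes (64.9%) have at least 1 transcript marked for nonsense-mediated decay, against 30.0% of the 5892 genes. A transcript with a retained intron is annotated for 28 of the 37 (75.7%), against 64.5% of all. The number of annotated transcripts had a median of 9 in the set and 5 in all. For these figures the 37 were taken without the minimum mean that the 5892 genes passed. Among the 33, the 21 genes with a decay transcript had a median log2 ratio of -0.30 and the 12 without one -0.37. Hnrnpa2b1 and Hnrnpu have such a transcript, and Pcbp2, Hnrnph1 and Hnrnpm do not. Gene-level values do not show which transcripts were present.

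The start regions are shown for the 3 members of mean 50 or more with the lowest log2 ratios and the 2 above 0, so that both ends of the range can be seen. Each window spans 250 bases before to 50 bases after a RefSeq start site (GRCm38.p6), 300 bases in all, the first of those listed for the gene. The RefSeq start of Hnrnpl lies inside the GENCODE gene and not at its end. Windows were found for 35 of the 37 genes. Capitals mark matches on either strand to 7 motifs. The letters searched were CCAAT for the box of the factor NF-Y, CGGAAG for the sites of ETS factors, AAGATGGC for YY1 and CGCATGCG for NRF1. The other motifs were TATAAA for the TATA box, GGGCGG for the GC box of Sp1 factors and CACGTG for the E-box. None of these motifs contains another, and 2 of the GC boxes of Hnrnpu overlap by a base.
Hnrnpa2b1, chr6:51469845-51470144, minus strand: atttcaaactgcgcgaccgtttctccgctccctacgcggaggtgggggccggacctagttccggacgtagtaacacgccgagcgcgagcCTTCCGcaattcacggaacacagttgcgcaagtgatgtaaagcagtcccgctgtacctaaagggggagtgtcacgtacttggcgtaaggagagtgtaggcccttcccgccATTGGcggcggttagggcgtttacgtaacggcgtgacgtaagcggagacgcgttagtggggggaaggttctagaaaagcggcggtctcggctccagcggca
Pcbp2, chr15:102470289-102470588, plus strand: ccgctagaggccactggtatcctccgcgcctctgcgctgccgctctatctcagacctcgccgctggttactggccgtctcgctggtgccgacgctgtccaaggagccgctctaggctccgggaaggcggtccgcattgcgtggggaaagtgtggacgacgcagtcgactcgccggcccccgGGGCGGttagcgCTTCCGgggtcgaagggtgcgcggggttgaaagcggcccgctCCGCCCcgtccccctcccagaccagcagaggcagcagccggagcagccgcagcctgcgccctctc
Hnrnpu, chr1:178337766-178338065, minus strand: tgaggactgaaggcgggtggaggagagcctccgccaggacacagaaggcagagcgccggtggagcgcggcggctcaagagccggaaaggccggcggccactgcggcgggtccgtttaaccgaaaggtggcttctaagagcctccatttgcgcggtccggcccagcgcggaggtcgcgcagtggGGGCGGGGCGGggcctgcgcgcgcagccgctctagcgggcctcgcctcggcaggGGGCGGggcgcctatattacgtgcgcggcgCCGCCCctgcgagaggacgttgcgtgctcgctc
Hnrnpl, chr7:28810640-28810939, plus strand: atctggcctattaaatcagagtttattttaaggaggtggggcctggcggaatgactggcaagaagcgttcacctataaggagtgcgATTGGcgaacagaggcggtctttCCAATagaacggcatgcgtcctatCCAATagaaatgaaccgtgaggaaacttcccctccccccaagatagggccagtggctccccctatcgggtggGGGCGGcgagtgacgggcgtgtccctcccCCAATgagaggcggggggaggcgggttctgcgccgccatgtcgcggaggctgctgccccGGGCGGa
Ptbp1, chr10:79854182-79854481, plus strand: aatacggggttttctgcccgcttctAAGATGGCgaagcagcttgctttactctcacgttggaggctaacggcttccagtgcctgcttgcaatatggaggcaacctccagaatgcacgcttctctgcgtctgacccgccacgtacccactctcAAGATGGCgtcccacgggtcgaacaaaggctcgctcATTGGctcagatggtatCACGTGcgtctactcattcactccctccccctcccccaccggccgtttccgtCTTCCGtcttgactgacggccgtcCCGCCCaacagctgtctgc

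A GC box was found in 28 of the 35 windows (80.0%), against 70.5% of 4749 windows. These 4749 belong to genes that passed the minimum mean of 20. The 35 were taken without that minimum and include members under it. The CCAAT letters were in 19 of 35 (54.3%), against 39.7%, and the ETS letters in 14 (40.0%), against 37.0%. The TATA letters were in 4 (11.4%), against 6.55%, and the E-box in 6 (17.1%), against 11.2%. YY1 and NRF1 letters were each in 2 windows (5.71%), against 6.15% and 4.46%. Among all 27025 windows of RefSeq genes, the GC box was in 35.9%, CCAAT in 37.9%, ETS in 17.2%, TATA in 14.2%, the E-box in 7.24%, YY1 in 2.88% and NRF1 in 1.91%. Among the windows shown, Hnrnpl holds 4 CCAAT matches and Ptbp1 2 YY1 matches, while Hnrnpu holds 4 GC boxes. Hnrnpa2b1 holds 1 CCAAT and 1 ETS match, and Pcbp2 1 ETS match and 2 GC boxes. A match is a run of letters and not a measured site.

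Results for the enzymes and partners of these factors depended on the minimum. Of 9 genes of SR kinases and import, 5 had a mean of at least 20. Of these 5, 4 were below 0 and 2, Dyrk1a and Tnpo3, at least 1.5-fold lower. The median of the 5 was -0.08. Among all genes with that mean, 45% were below 0 and 5.52% at least 1.5-fold lower. The 4 under the minimum were all below 0, against 65.3% of all genes there. With no minimum the list median was -0.42, against -0.31 for the members. Srpk1, which phosphorylates SR proteins in the cytoplasm, had 90.7 in the Pspc1 shRNA library and 91.8 in the LacZ shRNA library. The kinase Clk3 had 66.1 in the Pspc1 shRNA library and 69.8 in the LacZ shRNA library. Tnpo3, the import receptor of SR proteins, was chosen after its values were seen. It had 8.81 (447 reads) in the Pspc1 shRNA library and 32.8 (2141 reads) in the LacZ shRNA library. That is 3.73-fold lower, or -1.84 on the log2 scale (-1.38 once corrected). It passed the minimum, at a mean of 20.8, through its LacZ shRNA value.

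Relatives outside the set went both ways. Of 5 with a mean of at least 20, 3 were below 0 and 2 above, where 45% of all genes were below 0. Of the 4 under it, 3 were below 0. The list median was -0.13 with the minimum and -0.40 without it. Pcbp4 had 195.8 in the Pspc1 shRNA library and 116.5 in the LacZ shRNA library, 1.68-fold higher, opposite to Pcbp2. Raly, a relative of Hnrnpc, had 655.2 in the Pspc1 shRNA library and 574.9 in the LacZ shRNA library. The import receptor Tnpo1, which carries hnRNP A1 into the nucleus, had 48.2 in the Pspc1 shRNA library and 64.3 in the LacZ shRNA library.

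With the minimum of 20, other splicing regulators had the list median most like that of the set. Of 11 with a mean of at least 20, 10 were below 0, with a median of -0.38. At least 1.5-fold lower were 3 (Mbnl1, Rbm39 and Son). The shares of all genes were 45% below 0 and 5.52% at least 1.5-fold lower. Mbnl1 and Rbm39 passed the minimum, at means of 20.1 and 23.9, through their LacZ shRNA values. Celf1 had 51.0 in the Pspc1 shRNA library and 71.3 in the LacZ shRNA library, a log2 ratio of -0.48. Rbm10 had 125.1 in the Pspc1 shRNA library and 163.1 in the LacZ shRNA library. Khdrbs1 had 99.3 in the Pspc1 shRNA library and 119.1 in the LacZ shRNA library. These genes were long too (median 8446 bases), and their median was -0.11 once corrected.

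Core spliceosome genes lay nearer to all genes. Of 16 U1 and U2 snRNP genes 6 were below 0, with a median of 0.05 that turned to -0.05 when scaled by total reads. Snrpc had 244.1 in the Pspc1 shRNA library and 189.1 in the LacZ shRNA library, a log2 ratio of 0.37. Sf3a2 also stood at 0.37 and Sf3b4 at 0.36. Of 7 Sm core genes 5 were below 0 (median -0.10), with Snrpf at -0.32, Snrpd2 at 0.26 and Snrpe at -0.22. Genes of the U4/U6.U5 and Prp19 complexes had 7 of 13 below 0 (median -0.003, above 0 with median-of-ratios or trimmed-mean scaling), with Snrnp200 at -0.26, Prpf31 at 0.25 and Prpf19 at 0.24. None of the genes of these 3 lists with a mean of at least 20 was 1.5-fold lower or higher. Their median exonic lengths were 3506.5 bases (U1 and U2), 1976 (Sm core) and 5671 (U4/U6.U5 and Prp19), against 5842 for the members. After the length and GC correction the list medians were 0.07, -0.04 and 0.12 in that order, and -0.17 for the members. Genes of the exon junction complex and of nonsense-mediated decay had 7 of 12 below 0 (median -0.02, above 0 under the same scalings), none of the 12 being 1.5-fold away. Under the minimum, all 3 genes of that list and the 1 U1 and U2 snRNP gene were at least 1.5-fold lower, against 20.5% of all genes there. The 2 U4/U6.U5 and Prp19 genes there were below 0 but not 1.5-fold lower. With no minimum the exon junction and decay median was -0.15. Smg5 stood at -0.40, Eif4a3 at 0.23 and Magoh at -0.15.

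**Figure D4:**
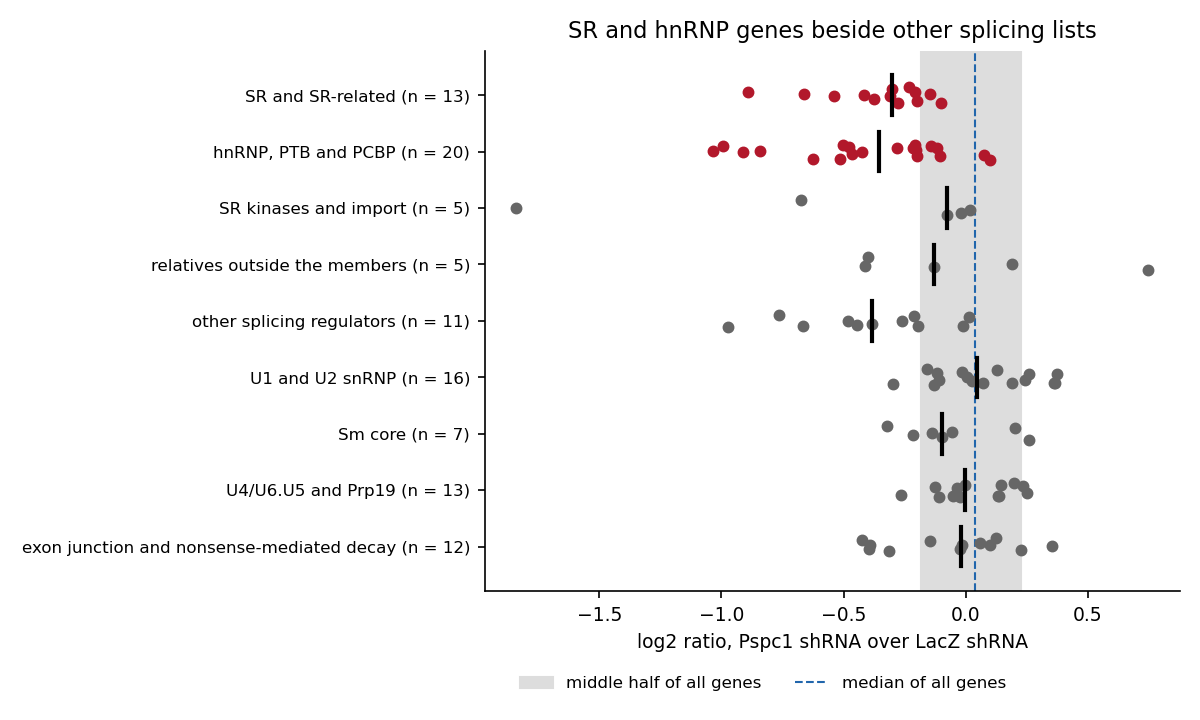
Log2 ratio (Pspc1 shRNA over LacZ shRNA) of each gene that reached the minimum mean of 20, with SR and hnRNP genes in red and other splicing lists in grey; black bars are list medians, the dashed line the median of all genes and the grey band their interquartile range (-0.18 to 0.23). Medians of the SR (-0.30) and hnRNP (-0.35) genes and of the other splicing regulators (-0.38) lie left of the band, and those of the core spliceosome lists inside it.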

How the data were processed

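The submitters' processing notes list Trimmomatic 0.39, featureCounts 2.0.0, HISAT2 2.1.0, DESeq 1.39.0 and build mm10, with neither role nor order. Annotation, gene filter and scaling formula are not given in the sources used here. Each deposited signal value is a scaled read count per gene, made by the authors, and per the labels' protocols it came from poly-A RNA prepared with TRIzol and the NEBNext Ultra kit. All values were whole multiples, within 0.01 reads, of 0.0197 in the Pspc1 shRNA library and 0.0153 in the LacZ shRNA library, which gave the reads behind each value.

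From these, log2 ratios were computed on the deposited scale with a pseudocount of 0.5. Counting intervals are 95% conditional binomial (Clopper-Pearson) intervals for ratios of reads, normal ones for differences between pairs, and cover counting error only. The reads carry no molecular identifiers. A minimum mean of 20 applied to counts and medians. Symbols matched 11399 of 11405 identifiers. Lengths (merged exons) and transcript types came from GENCODE M21, GC content from its transcripts, start regions from RefSeq. The length and GC correction used lowess fits across genes. Shared windows are exact 50-base matches to transcripts of other genes on either strand. Named are Pspc1, every member and up to 3 genes of mean 50 or more per related list by absolute log2 ratio. Dyrk1a, Mbnl1, Rbm39, Son and Tnpo3 were named after their values were seen. Members and lists were chosen with earlier results of these data known. The steps were tested on simulated data. Python 3.11.15, numpy 2.4.6, pandas 2.3.3, scipy 1.17.1, statsmodels 0.14.6 and matplotlib 3.10.9 were used. Alternatives were 3 other scalings, a pseudocount of 5, the length and GC correction, and minimum means of 50, 100 or none.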

Additional observations from a re-analysis of the deposited data

How the results depend on the processing

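No paired analysis was possible because each group held 1 library, and for the same reason no library could be left out. Scaling by total reads moved the median of all genes by -0.10 and put all 33 members below 0, against 59.0% of all genes. It gave 3 members at least 2-fold lower (Hnrnpa2b1, Pcbp2 and Hnrnpu) and medians of -0.41 for all members, -0.41 for SR and SR-related and -0.46 for hnRNP, PTB and PCBP members. With a trimmed mean of M values 0 members were 2-fold lower. With median-of-ratios scaling 0 were, and the medians were -0.25, -0.25 and -0.30. A scaling shifts all log2 ratios almost alike, so the distance from the members' median to that of all genes stayed at -0.34 under each. That distance was -0.32 with a pseudocount of 5 and -0.21 after the length and GC correction. The length and GC correction left 0 members 2-fold lower and 3 at least 1.5-fold lower, with medians of -0.17, -0.15 and -0.28, and turned the sign of 6 of 33 members. At a minimum mean of 100, 19 of 21 members were below 0 and 3 at least 1.5-fold lower, against 34.95% and 3.004% of 2097 genes, with medians of -0.21, -0.20 and -0.21. At a minimum mean of 50 the SR median was -0.21, and with no minimum the hnRNP median was -0.47. Related lists also had lower medians with no minimum: -0.42 for SR kinases and import and -0.40 for relatives outside the set. The other splicing regulators then stood at -0.48, the exon junction and decay genes at -0.15 and all genes at -0.05. The counts of members at least 1.5-fold lower ranged from 3 to 10 over the 8 alternatives, while the share of all genes ran from 3.004% (minimum mean of 100) to 12.8% (no minimum) and was 8.10% scaled by total reads. No member was 1.5-fold higher under any of them. The cause of these shifts was not tested. Depth limits mainly the scarcest members, whose counting intervals were up to 0.46 wide on the log2 scale.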

Other observations

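Some SR and hnRNP genes share a start region with a gene on the opposite strand. Protein-coding genes in the files whose annotated start lay within 1000 bases upstream on the other strand were found for 8 of the 37 members. The share of all genes with such a neighbour was not computed, so the count does not set the members apart. Ratios of the neighbours are not corrected for length and GC. Hnrnpa2b1 and Hnrnpa1 each face a gene of heterochromatin protein 1. Cbx3, whose start lies 466 bases from that of Hnrnpa2b1, had 26.4 in the Pspc1 shRNA library and 42.1 in the LacZ shRNA library, a log2 ratio of -0.66 beside -1.04 for Hnrnpa2b1. Cbx5, 616 bases from Hnrnpa1, had 74.99 in the Pspc1 shRNA library and 99.9 in the LacZ shRNA library (-0.41 beside -0.21). Lrrc40, 23 bases from Srsf11, stood at -0.42 beside -0.54.

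Other neighbours differed from the member in size or sign. Gla, the lysosomal alpha-galactosidase gene, starts 54 bases from Hnrnph2 and had 33.9 in the Pspc1 shRNA library and 20.4 in the LacZ shRNA library, a log2 ratio of 0.72 beside -0.51 for Hnrnph2. Enoph1 beside Hnrnpdl stood at 0.03 and Ttc9c beside Hnrnpul2 at -0.02, while these members had -0.48 and -0.47. The counting intervals of Enoph1 and Ttc9c spanned 0. The scarce 4930524J08Rik (mean 4.83) stood at 0.39 beside -0.14 for Hnrnpd. Pbld2 (mean 1.15) stood at -0.12 beside -0.84 for Hnrnph3, with a counting interval of -0.70 to 0.33. These genes were chosen after their values were seen.

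Below the minimum mean of 20, several splicing genes had low ratios. Syncrip, a close relative of Hnrnpr, had 9.47 in the Pspc1 shRNA library and 27.2 in the LacZ shRNA library (log2 ratio -1.48, or -0.90 once corrected for length and GC). Qk, an endothelial and glial splicing regulator, had 9.04 in the Pspc1 shRNA library and 22.8 in the LacZ shRNA library. Ptbp3, a relative of Ptbp1, had 11.1 in the Pspc1 shRNA library and 21.6 in the LacZ shRNA library. They were chosen after their values were seen, and 20.5% of all genes under that minimum were at least 1.5-fold lower.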
